A study of Daphnia magna with 27 samples.

Results

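Gene expression in the water flea Daphnia magna was compared between 2 generations of control animals, CtrlF1 and CtrlF2, of a study that followed zinc exposure over 3 generations on a spotted cDNA array. The reporters described here are all those with a test statistic in the authors' deposited table of CtrlF1 against CtrlF2, and they number 2245 of the 2261 reporters listed for the array. A reporter is a spotted clone of a Daphnia cDNA library, and 16 listed reporters had no test.

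CtrlF1 comprised 3 samples of first-generation control animals aged 22 days, and CtrlF2 comprised 3 samples of second-generation control animals aged 20 days. Both descend from neonates of one laboratory culture raised in modified standard M4 medium with no zinc adjustment, and were collected when the following generation was begun. Each sample was RNA of 10 whole adults of the clone K6, so all samples share a single laboratory clone, and a change in the share of a tissue cannot be told apart from a change in RNA per cell. Each hybridisation set a sample against the same reference pool, made of RNA from 60 daphnids each of 6, 13 and 21 days that had been kept in enriched tap water instead. The 3 CtrlF1 samples carried the dye Cy5, whereas 2 of the 3 CtrlF2 samples (replicates 1 and 2) carried Cy3 and the third (replicate 3) carried Cy5. Age and dye therefore differ along with generation, and these cannot be told apart by the labels. Control animals of the parental generation, CtrlF0, were aged 20 days and carried Cy5, and their arrays number 2 here because the columns of replicates 1 and 3 differed by at most 0.00026 and were counted as 1 sample. Nothing in the labels ties the 3 samples of one group to different cultures, so a p-value measures at most the spread between samples, which may be technical. For the authors' deposited table it may rest partly on the spread between spots, since its degrees of freedom exceed what 6 samples leave.

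Daphnia reproduce clonally in favourable conditions, and adult females pass through repeated moults, each tied to the release of a brood and the ripening of the next clutch of eggs. Whole adults therefore hold the RNA of the gut, the fat cells that make yolk proteins and haemoglobin, the ovary, and the embryos in the brood pouch. Controls of successive generations serve a study of this kind as the baseline against which exposed animals of the same generation are set.

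In the authors' deposited table, 691 of the 2245 reporters were called at an adjusted p under 0.05 by limma with Benjamini-Hochberg adjustment, or 30.8% of those tested. Of these, 332 were higher in CtrlF1 (14.8%) and 359 were lower in CtrlF1 (16.0%). The degrees of freedom behind the table exceed what 6 samples leave, so its p-values and standard errors may be too small. The median size of a called change was 0.59 on the log2 scale, and the median standard error over all reporters in the authors' deposited table was 0.15. Large changes were mostly in one direction: 98 calls were at least 1 log2 unit higher in CtrlF1 (4.37% of those tested), against 34 at least 1 lower (1.51%). Changes in the table ran between -2.68 and 4.76, with a median of -0.02. At the edge of the call, the last reporter called had an adjusted p of 0.0496 and the first not called had 0.05004. The same authors' deposited tables called 25.0% of reporters for CtrlF1 against CtrlF0 and 12.5% for CtrlF2 against CtrlF0. These 3 comparisons share their samples.

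The values of single arrays gave a second view of the same change. A table of log2 ratios per sample was deposited as well, and each array is given here relative to its own median. The sources do not state the direction of these ratios; they are read as sample over reference pool, and read the other way every array value and array difference would change sign. The difference of the array means, CtrlF1 minus CtrlF2, had the sign of the authors' deposited change for 97.7% of the 691 calls and for 84.7% of all 2245 reporters. Across reporters, which are not independent replicates, the correlation between deposited change and array difference was 0.853 (Pearson) and 0.848 (Spearman). Replicate 3 of CtrlF2, in the same dye as CtrlF1, gave the sign of the deposited change for 88.4% of 688 calls when used alone. The 2 Cy3 arrays of CtrlF2 gave it for 98.3% of the 691 calls. Over all reporters with a value, called or not, the shares were 71.2% for replicate 3 and 88.4% for the 2 Cy3 arrays. These arrays belong to the groups compared in the deposited table, and the calls were chosen by its change, so the shares are a description.

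**Figure D1:**
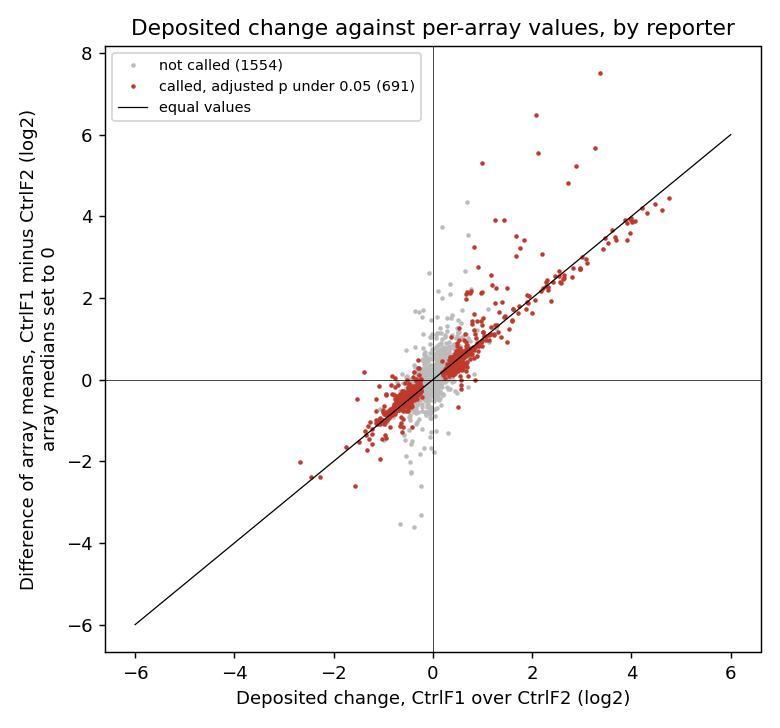
Each point is 1 of the 2245 tested reporters. The horizontal axis is the authors' deposited log2 change of CtrlF1 over CtrlF2, and the vertical axis is the difference of the array means in log2 units after each array's median was set to 0. The 691 called reporters are in red and lie along the line of equal values, with a Pearson correlation of 0.924, and a group of them lies above it.

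The groups also separated sample by sample. Of the 2128 reporters with a value on all 6 arrays, 377 had all 3 CtrlF1 values above all 3 CtrlF2 values (17.7%) and 395 had all of them below (18.6%), together 772 reporters (36.3%). Of the deposited higher calls with all 6 values, 237 of 320 were separated in that way, and of the lower calls 269 of 358. These counts rest on the same hybridisations as the deposited table and give no independent check of it.

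A limma fit of the per-sample values, with a mean for each group of the series and a term for the dye, called 294 of 2207 reporters at an adjusted p under 0.05 (13.3%), with 97 higher in CtrlF1 (4.40%) and 197 lower (8.93%). Before centring, the CtrlF1 arrays had medians of 0.01, -0.01 and -0.02, whereas the CtrlF2 arrays had -0.34, -0.31 and 0.35, and the fit moved the median of all reporters by -0.13. With each array centred on its median, 395 reporters were called (17.9%), 201 higher in CtrlF1 (9.11%) and 194 lower (8.79%). Fit values of single reporters below are those after centring unless said otherwise. Of the 689 deposited calls that could be fitted, 282 (40.9%) were also called in the same direction after centring, which is 71.4% of the calls of the centred fit, and 1 reporter was called in opposite directions. The number of calls depended on the model, between 58 and 986 over the 18 settings run. With the 6 control samples alone and no dye term, 58 reporters were called (55 higher and 3 lower).

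CtrlF1 arrays resembled each other more than CtrlF2 arrays did. Pearson correlations across reporters were 0.602 to 0.781 between CtrlF1 arrays and 0.273 to 0.463 between CtrlF2 arrays. All CtrlF1 arrays were in Cy5. The CtrlF2 pair in the same dye had 0.463, and the pairs in opposite dyes had 0.273 and 0.274. The median SD between arrays was 0.147 in CtrlF1 and 0.236 in CtrlF2. Between a CtrlF1 and a CtrlF2 array the correlation was negative in all 9 pairs, from -0.284 to -0.056. CtrlF2 arrays held 64, 8 and 22 log2 ratios beyond 3 in size after centring, against 3, 0 and 1 in CtrlF1 arrays. The part of these features in the calls was not tested.

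The reporters with a gene name come first, since they tie the change to known functions. A name was given for 40 reporters, of which 38 were tested, and 2 of them were called in the authors' deposited table: a cyplasin reporter that was lower in CtrlF1 and a 16S ribosomal reporter that was higher. The background for any reporter was 30.8% called. The median size of the deposited change was 0.144 over the named reporters, against 0.253 over all reporters tested. These values are a description, since the named reporters are few and not drawn evenly from the array. Those with a library mark in the identifier were all of the library Rep. In Rep, 5.11% of tested reporters were higher in CtrlF1 and 19.2% lower. Of the named reporters, 8 had a value on 1 CtrlF1 array only.

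The cyplasin reporter EBT_DamaRep_ASP8 F6 (named "cyplasin s") carries the name of a sea hare glycoprotein with cytotoxic activity; the sources used here give it no role in Daphnia. Its log2 ratios were -0.55, -0.47 and -0.47 in CtrlF1, against 0.24, 0.14 and 0.40 in CtrlF2. All CtrlF1 samples were below all CtrlF2 samples, in both dyes of CtrlF2. The authors' deposited change was -0.69 ± 0.09 (SE; limma adjusted p 7.56e-06), a level in CtrlF1 0.619 times that in CtrlF2. The limma fit of the arrays gave -0.80 ± 0.12 after centring (SE; adjusted p 0.000545) and -0.94 with the values as deposited (adjusted p 0.00313). The fit of the values as deposited no longer called it without the dye term (limma adjusted p 0.0533), with only the 6 control samples (0.397), with the replicate block (0.441) or without CtrlF2 replicate 3 (0.0516). In CtrlF0 the ratios were 0.13 and 0.07, between those of the other two generations. The authors' deposited tables gave -0.57 for CtrlF1 against CtrlF0 (limma adjusted p 1.4e-05) and 0.21 for CtrlF2 against CtrlF0 (limma adjusted p 0.266).

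The other cyplasin reporters were not called in the authors' deposited table, in which their changes ran between -0.33 and 0.02. Reporter EBT_DamaRep_ASP8 B4 is a case where the sources differ: its deposited change was -0.05 (limma adjusted p 0.896), and the array fit gave -1.97 ± 0.64 (SE; limma adjusted p 0.0426). Its values were -0.24 and 0.12 on the CtrlF1 arrays that had one, against -0.01, -0.04 and 2.43 in CtrlF2. The high value was replicate 3 alone, and the other CtrlF2 values lay between the CtrlF1 values.

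The reporter EBT_DamaRep_ASP8 F4 (named "rib 16s") carries the name of a ribosomal RNA that animals encode in mitochondrial DNA. Its log2 ratios were 0.22, -0.00 and 0.16 in CtrlF1, against -0.28, -0.23 and 0.21 in CtrlF2. Both Cy3 samples of CtrlF2 were below all CtrlF1 samples, and the Cy5 sample of CtrlF2 lay within the CtrlF1 values. The authors' deposited change was 0.37 ± 0.08 (SE; limma adjusted p 0.00128). The array fit with its dye term gave 0.08 ± 0.18 (SE; limma adjusted p 0.807) and did not call it. A second reporter named for 16S, EBT_DamaRep_ASP1 B5, had a deposited change of -0.10 and was not called, nor were those named "rib 40S" and "rib l17" (0.20 and 0.16). For "rib 40S" the arrays ran the other way, with means of 0.34 in CtrlF1 and 0.68 in CtrlF2, and the array fit gave -0.40 ± 0.30 (SE; limma adjusted p 0.406).

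Yolk protein precursors are made by the mother in large amounts as eggs ripen. None of the 3 vitellogenin reporters was called, where 30.8% of all tested reporters were. They are too few to be set against that share. Reporter EBT_DamaRep_ASP1 F6 (named "vtg") had log2 ratios of -0.19, -0.24 and -0.00 in CtrlF1, against -0.06, 0.16 and 0.24 in CtrlF2. One CtrlF1 sample lay above the lowest CtrlF2 sample, so the groups overlapped. The authors' deposited change was -0.36 ± 0.14 (SE; limma adjusted p 0.0599), and for CtrlF1 against CtrlF0 it was -0.45 (limma adjusted p 0.0107). The second "vtg" reporter and the "vtg precursor" reporter had deposited changes of 0.02 and -0.12.

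Metal-binding genes are the classical responders to zinc, and metallothioneins bind zinc directly whereas ferritin stores iron. Of 10 such reporters 8 were tested, and none was called between the control generations, where 30.8% of all tested reporters were. The reporters "Mta oud" and "Mtb oud" had deposited changes of 0.00 ± 0.05 and -0.03 ± 0.06 (SE). Their log2 ratios lay between 0.01 and 0.13 in CtrlF1, against -0.02 to 0.20 in CtrlF2, so the groups overlapped and spanned little. The reporter "ferritine oud" had 0.14, 0.06 and 0.09 in CtrlF1, against -0.08, 0.86 and -0.05 in CtrlF2, with the high value on replicate 2 only. Its deposited change was -0.27 ± 0.16 (SE; limma adjusted p 0.226). The other 5 tested metal reporters had a value on 1 CtrlF1 array only, and their standard errors were 0.34 to 1.19, so a change of 0.59, the median called size, would be under 2 standard errors for each of them.

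Among the remaining lists, none of the 2 cyclin reporters, 3 chromatin reporters, 3 retinol dehydrogenase reporters, 4 enzyme reporters or 2 cytoskeleton and blood cell reporters was called in the authors' deposited table. Each list is too small to be set against the 30.8% called over all tested reporters. Cyclin B3, which drives entry into mitosis, had a deposited change of -0.06 ± 0.08 (SE). Peroxinectin, a cell adhesion protein of arthropod blood cells, had -0.02, -0.11 and 0.25 in CtrlF1, against -0.35, -0.08 and 0.99 in CtrlF2. The highest of these was again replicate 3 of CtrlF2, and the deposited change was 0.10 ± 0.19 (SE). The reporter named "kinase" had -0.39 ± 0.18 (SE; limma adjusted p 0.125) in the authors' deposited table, whereas its array means were -0.06 in CtrlF1 and -0.03 in CtrlF2, and the array fit gave 0.17 ± 0.29 (SE; limma adjusted p 0.724). Of the 30 named reporters with both values, 10 had opposite signs in the deposited table and the centred array fit, and none of these 10 was called in the deposited table. No reporter carried a name for haemoglobin, cuticle, digestive enzymes or heat shock proteins, so these markers could not be examined.

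**Figure D2:**
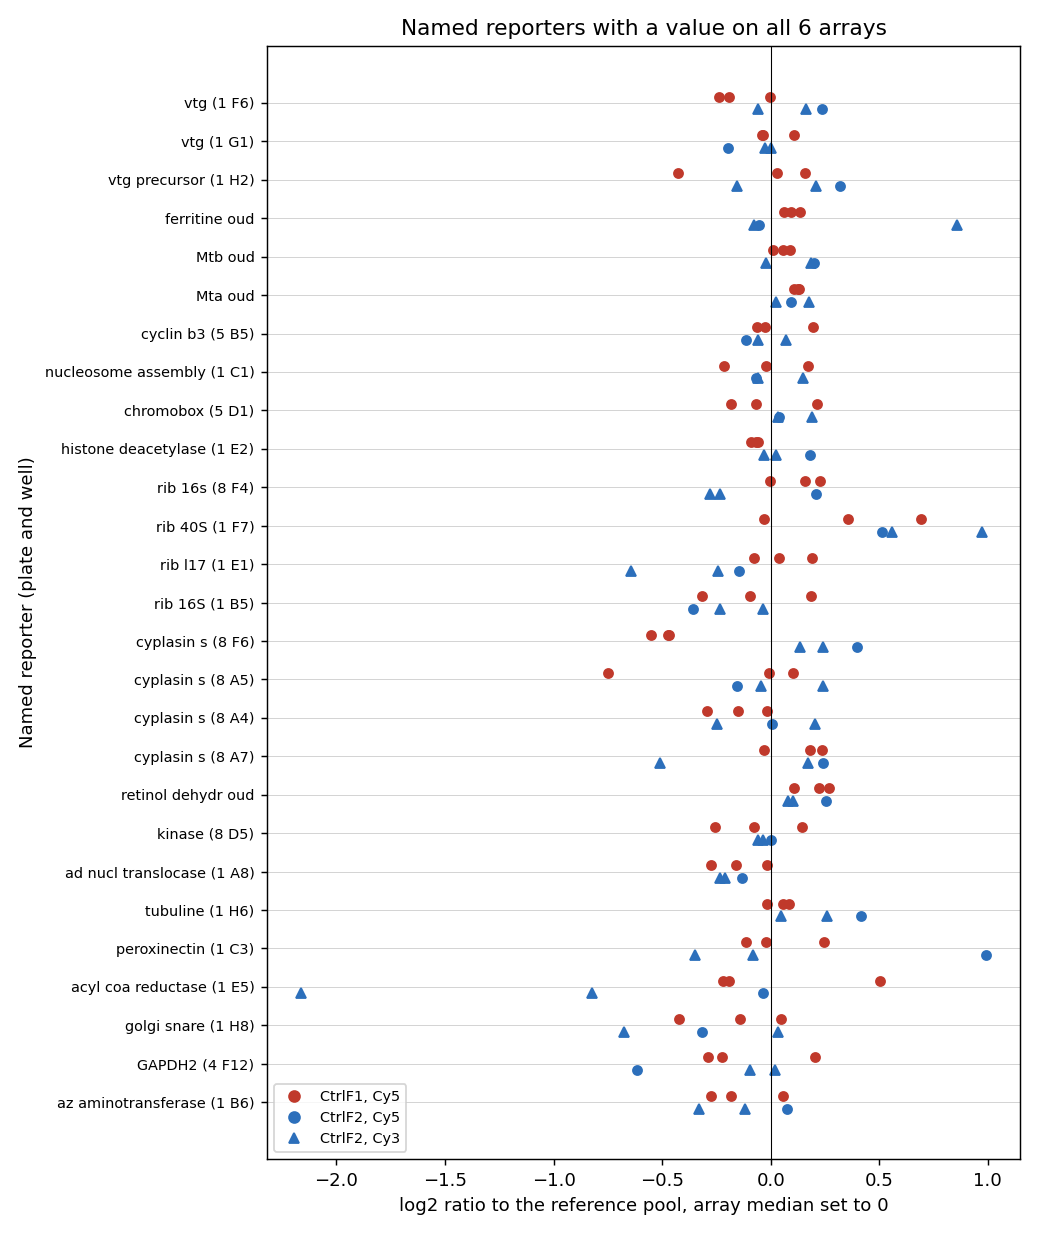
Each row is 1 of the 27 named reporters with a value on all 6 arrays, and the horizontal axis is the log2 ratio to the reference pool with each array's median at 0. Red circles are the 3 CtrlF1 samples, drawn above the CtrlF2 samples in blue (triangles in Cy3, circle in Cy5). The cyplasin reporter 8 F6 has CtrlF1 values of -0.55 to -0.47 and CtrlF2 values of 0.14 to 0.40.

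A further 44 reporters bore the name "unknown", and 8 of them were called, 2 higher and 6 lower in CtrlF1, with deposited changes between -0.69 and 0.98. Over all tested reporters 30.8% were called. The 8 were all Rep clones, and in Rep 5.11% of tested reporters were higher and 19.2% lower. The groups did not overlap for 5 of these 8, against 506 of the 678 calls with all 6 values. The array fit also called 3 of the 8, against 40.9% of all deposited calls that could be fitted. Reporter EBT_DamaRep_ASP1 G5 had the largest rise among them: its log2 ratios were 0.14, 0.03 and -0.06 in CtrlF1, against -1.17, -0.87 and -0.70 in CtrlF2. It was singled out after its values were seen.

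The calls of at least 1 log2 unit, 132 of the 2245 tested reporters, were all on clones with no name. Only 38 tested reporters had a name, too few to set named against unnamed clones. The reporter EBT_DamaMol_ASP4 H11 had log2 ratios of 0.58, 1.35 and 1.90 in CtrlF1, against -4.88, -2.09 and -2.50 in CtrlF2. Every CtrlF1 value was above its array's median and every CtrlF2 value below it. The authors' deposited change was 4.76 ± 0.50 (SE; limma adjusted p 1.19e-06). CtrlF0 samples stood between, at -0.33 and -0.34. Reporter EBT_DamaMol_ASP4 C3, from the same plate, had 0.61, 1.24 and 1.92 in CtrlF1, against -4.79, -1.93 and -2.00 in CtrlF2. Its values followed those of the first sample by sample, and its deposited change was 4.61 ± 0.51 (SE; limma adjusted p 2.09e-06). No source used here says whether these clones carry the same gene. Without a given replicate, the array fit of the uncentred values no longer called EBT_DamaMol_ASP4 H11 in 4 of 6 cases or EBT_DamaMol_ASP4 C3 in 5 of 6, and their changes were then 2.77 to 4.19 wherever the call was lost.

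Among the falls, EBT_DamaMol_ASP6 H12 had log2 ratios of -1.87, -0.85 and -1.29 in CtrlF1, against 0.62, 1.11 and 1.38 in CtrlF2. The CtrlF1 values lay below the array median and the CtrlF2 values above it. The authors' deposited change was -2.46 ± 0.20 (SE; limma adjusted p 9.43e-08). Reporter EBT_DamaRep_ASP7 F5 had -2.76, -0.44 and -1.66 in CtrlF1, against 0.20, 1.01 and 1.12 in CtrlF2, with a deposited change of -2.28 ± 0.46 (SE; limma adjusted p 0.000981). The groups did not overlap, and the CtrlF1 samples spread over more than 2 log2 units.

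Taken by array, the 98 reporters called at least 1 higher had medians of 0.56, 0.96 and 1.42 in CtrlF1, against -2.09, -1.15 and -1.20 in CtrlF2. These values chose the set and are a description. The 2 CtrlF0 arrays had medians of -0.43 and -0.34. Array by array over the rest of the series, the medians were 0.53 to 1.13 in ZnF0, the parental animals exposed to zinc at 388 µg/L and aged 23 days, and -1.54 to -1.43 in Zn(-)F1, the offspring of exposed mothers that were returned to control medium. The medians were -1.60 to 0.03 in Zn(+)F1, whose animals stayed in zinc, the highest on replicate 2 with values for 886 reporters, and -1.87 to -0.36 in their offspring kept in zinc, Zn(+)F2. Offspring of Zn(+)F1 moved to control medium, Zn(+/-)F2, had -0.54 to -0.22, and offspring of Zn(-)F1, Zn(-/-)F2, had -0.86 to 0.20. High levels of the set thus appeared in CtrlF1 and ZnF0, which are both in Cy5. Low levels appeared in CtrlF2, in Zn(-)F1 and in replicates 1 and 3 of Zn(+)F1, the Zn(+)F1 and Zn(-)F1 samples all being in Cy3. Other arrays in Cy5 were also low, with -1.20 in CtrlF2 replicate 3, -0.86 in Zn(-/-)F2 replicate 3, and -0.43 and -0.34 in CtrlF0. Replicate 1 of Zn(-/-)F2, in Cy3, was at 0.20. In Zn(+)F2 the Cy3 array was at -1.87 and the Cy5 arrays at -0.37 and -0.36. Age differed between the groups as well. CtrlF1 was aged 22 days and ZnF0 23 days, CtrlF2 and CtrlF0 20 days, and Zn(+)F1, Zn(-)F1 and Zn(+)F2 21 days. Zn(+/-)F2 and Zn(-/-)F2 were aged 22 days like CtrlF1 and had lower medians. The parts of dye and age in this order were not tested.

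The 34 reporters called at least 1 lower showed the opposite order, with array medians of -0.76 to -0.57 in CtrlF1, against 0.29 to 0.56 in CtrlF2. ZnF0 arrays lay at -0.69 to -0.46, near CtrlF1, and Zn(-)F1 arrays at 0.36 to 0.59. The higher set also moved together on arrays outside both control generations: over 19 such arrays, without Zn(+)F1 replicate 2 because of its few values, the median correlation between pairs of its reporters was 0.788 for the 92 with enough values, against -0.00 over 1829 tested reporters. For 29 of the lower set it was 0.439. Pairs of reporters share the arrays, their dye and any common clone, and these values are a description.

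**Figure D3:**
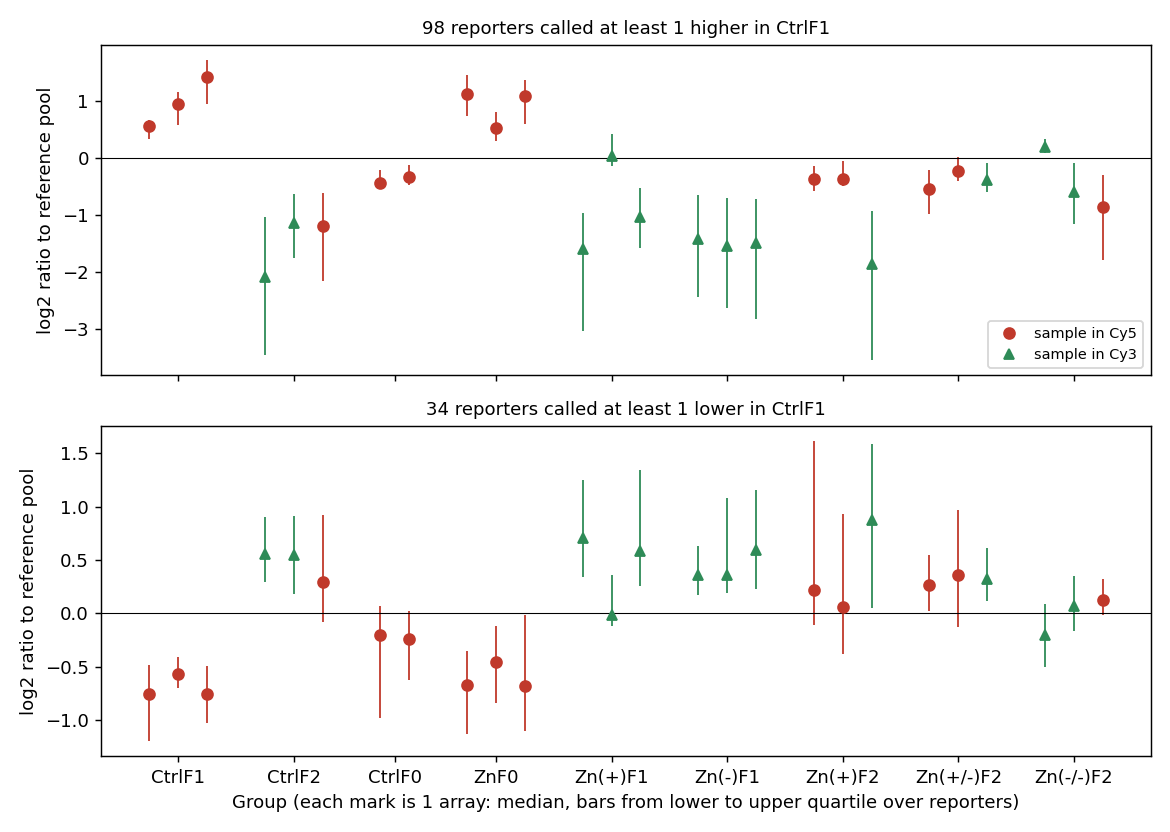
Each mark is 1 array, and the vertical axis is the log2 ratio to the reference pool with the array's median at 0: the median over the reporters of the set, with bars from the lower to the upper quartile. Red circles are samples in Cy5 and green triangles samples in Cy3. In the upper panel CtrlF1 arrays sit at 0.56 to 1.42 and CtrlF2 arrays at -2.09 to -1.15, and ZnF0 arrays sit near CtrlF1.

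The place of CtrlF0 is given as a description, since reporters chosen for a wide gap between CtrlF1 and CtrlF2 leave much room for another group inside it. Of the 95 reporters at least 1 higher in CtrlF1 that had the values needed, CtrlF0 lay between CtrlF1 and CtrlF2 for 91, beyond CtrlF2 for 3 and beyond CtrlF1 for 1. For 28 reporters at least 1 lower, it lay between for 22. Over all 296 higher calls with those values CtrlF0 lay between for 206, and over all 330 lower calls for 174. In the authors' deposited tables, the 98 reporters had a median change of 1.45 for CtrlF1 against CtrlF0 and -0.89 for CtrlF2 against CtrlF0. The corresponding medians of the 34 were -0.48 and 0.69. The comparisons share samples.

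The clones come from libraries marked Ene, Mol and Rep in the reporter identifiers, tokens left unexplained in the labels and file headers. Reporters of Mol and Ene were higher in CtrlF1 in 20.1% and 18.9% of those tested, whereas those of Rep were higher in 5.11%. Lower calls took 13.9% of Mol, 15.2% of Ene and 19.2% of Rep. Of the 98 large rises, 56 were Mol clones, 33 Ene and 9 Rep. All named reporters whose identifier has a library token were of Rep, the library in which rises were fewest.

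Within a library the calls followed the clone plate, which is read here from the number after ASP in the reporter identifier. On Mol plates 1 to 5, 29.4% of reporters were higher in CtrlF1 and 8.03% lower, whereas on Mol plates 6 to 8, 4.61% were higher and 23.8% lower. The median deposited change was 0.16 on the first set of plates and -0.19 on the second. The plate ranges were chosen after their values were seen. Mol plates 1 to 5 held 55 of the 98 large rises, and plate 4 alone held 17. Over the same ranges Ene had 23.7% higher and 11.3% lower on plates 1 to 5, and 11.2% higher and 21.7% lower on plates 6 to 8. Its plates were not uniform: plate 5 had 12.5% higher and 22.9% lower, like the later plates, and plate 2 had 16.8% higher and 13.7% lower. Rep ran the other way for higher calls, with 3.28% on plates 1 to 5 and 8.27% on plates 6 to 9, and in Rep no plate had more than 11.4% of its reporters higher.

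The Mol plate ranges stood apart on each of the 6 arrays. Plates 1 to 5 were above plates 6 to 8 in CtrlF1 and below them in CtrlF2. The ranges were chosen from calls between these same groups, so the values are a description. The median log2 ratio of Mol plates 1 to 5 was 0.04, 0.07 and 0.07 in CtrlF1, against -0.14, -0.18 and -0.14 in CtrlF2. Mol plates 6 to 8 had -0.13, -0.05 and -0.09 in CtrlF1, against 0.10, 0.08 and 0.07 in CtrlF2. Both Cy3 samples and the Cy5 sample of CtrlF2 lay on the same side, and the groups did not overlap. On Ene plates 6 to 8 the medians were 0.02, 0.02 and 0.02 in CtrlF1, against 0.14, -0.02 and 0.07 in CtrlF2, and there the groups overlapped. CtrlF2 replicate 2 had nearly the same median on both Ene ranges, -0.04 on plates 1 to 5 and -0.02 on plates 6 to 8. No source used here describes how the plates were printed. Any difference between plates in their clones or in their printing cannot be told apart here.

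**Figure D4:**
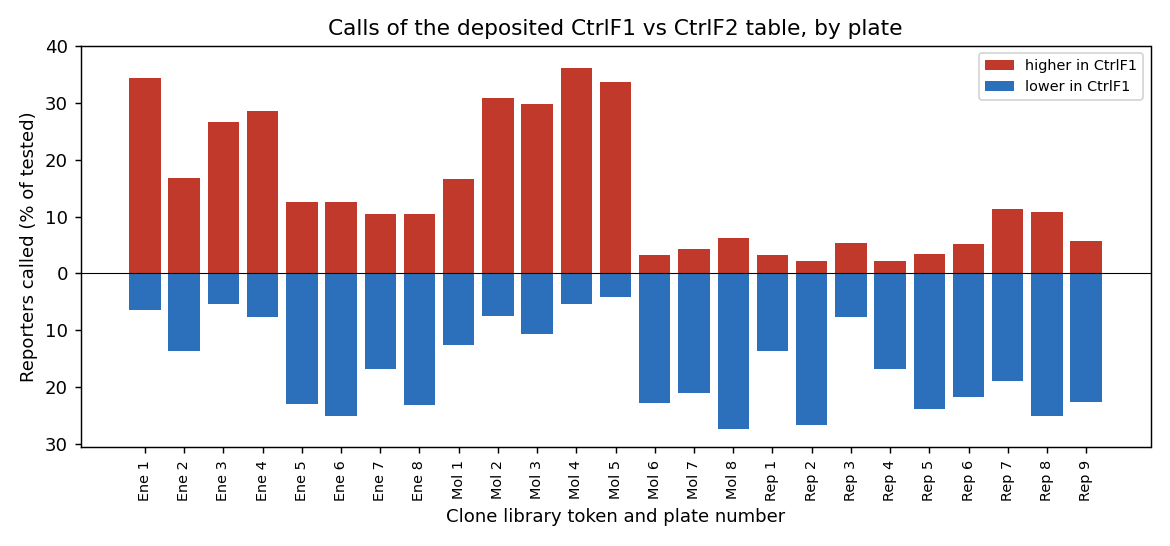
Each bar is 1 clone plate of the library marked Ene, Mol or Rep, and the vertical axis is the percentage of its tested reporters called in the authors' deposited table, higher in CtrlF1 upwards in red and lower in CtrlF1 downwards in blue. On Mol plates 1 to 5 the higher calls outnumber the lower, and on Mol plates 6 to 8 the lower outnumber the higher.

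Calls were more frequent among bright reporters, whose standard errors in the authors' deposited table were also smaller. In the dimmest 25% of reporters by the table's average expression 13.7% were called, with a median standard error of 0.230, and in the brightest 25% of reporters 48.3% were called, with a median standard error of 0.103. The Spearman correlation of the authors' deposited change with the array difference was 0.691 in the dimmest and 0.965 in the brightest 25% of reporters. The median SD between CtrlF2 arrays was 0.511 in the dimmest and 0.179 in the brightest 25% of reporters, while that between CtrlF1 arrays was 0.167 and 0.161. Of the calls among the brightest reporters, 48.0% were also called by the centred array fit in the same direction, against 31.2% of those in the dimmest.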

How the data were processed

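The deposited limma table of CtrlF1 against CtrlF2 holds log2 changes, a score (t and B) and p-values per reporter, made by the authors with limma, per the submitters' processing notes; the version, normalization and design are not stated there. Direction follows the order of the groups in the table's name; the per-array values have the same sign if read as sample over reference, which is not stated. Standard errors were computed as the change over t. The degrees of freedom implied by t and p were 5.5 to 16.5, more than 6 samples leave. Spots may therefore count as separate values, and p-values and standard errors may be too small. The deposited per-sample log2 ratios were read as already turned one way, which is not stated. Arrays of opposite dye in one group correlated at 0.27 to 0.76 in CtrlF2, Zn(+/-)F2 and Zn(-/-)F2. In Zn(+)F2 such pairs had 0.03 and -0.13. The scale and centring of the ratios are not stated, and whether all are sample over reference stays unknown. Intensities were not used, and the number of arrays limits the precision.

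The per-sample log2 values as deposited were fitted with limma 3.58.1 in R 4.3.3 (lmFit, eBayes) over 26 arrays of 9 groups, with a dye term and at least 2 values per group. Centred values are printed per array because the uncentred fit moved the median of all reporters by -0.13, a choice made after seeing the data. The fit was tested on simulated data. Other tools were Python 3.11.15 and pandas 2.3.3. The named genes are all reporters with a name, grouped in 13 lists by words in the name, and of the unnamed the 2 largest rises and 2 largest falls called in both the deposited table and the fit; the members and lists were chosen with earlier results of these data known. No reporter matched the RefSeq gene table, so no position or sequence is given.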

Additional observations from a re-analysis of the deposited data

How the results depend on the processing

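Of the deposited table's 691 calls, 472 had an adjusted p under 0.01, and requiring at least 1 log2 unit left 132; centring its changes gave 684 calls and leaving out the dimmest 25% of reporters 642. The limma fit of the per-sample values, with 294 calls at the settings fixed for it, gave 168 without the dye term (137 higher, 31 lower), 58 with only the 6 control samples, 550 with only samples in Cy5 (117 higher, 433 lower; CtrlF2 is then 1 sample, assumed to vary like the other groups), 395 with arrays centred, 449 with arrays centred and scaled and 261 without the dimmest 25%. The share of calls that were higher in CtrlF1 was 33.0% at the fixed settings, 81.5% without the dye term, 21.3% in Cy5 only and 50.9% after centring. With the replicate number as a block over the 6 samples, 138 were called (123 higher, 15 lower); samples of the same number deviated together with correlations of 0.182, 0.051 and 0.060, so the labels pair them by number only, and CtrlF1 replicate 3 correlated best with CtrlF2 replicate 2. Leaving out 1 replicate gave 75 to 322 calls, the fewest without CtrlF2 replicate 3 (56 higher, 19 lower), and 168, 153 and 119 without CtrlF1 replicates 1, 2 and 3. Of 4 alternatives chosen after seeing the data, robust regression gave 986 calls, leaving out Zn(+)F1 replicate 2 (values for 886 reporters) 321, leaving out Zn(+)F2 391, and centring without both 548. The cause of these differences was not tested. For single reporters, 725 of 775 recomputed values kept their side of the threshold, 29 lost a call and 21 gained one. Most of the reporters given with values above were not called at the fixed settings and had no call to lose. The share kept is therefore no measure of how stable the calls were. No value called at the fixed settings of the fit changed sign. Calls of the deposited table are not covered by this. EBT_DamaRep_ASP8 F4 had 0.37 there and -0.06 in the fit at the fixed settings. EBT_DamaRep_ASP1 A6 had -0.26 there and 0.09 in that fit, which called neither. The cyplasin reporter EBT_DamaRep_ASP8 F6 lost its call in the fit without the dye term (adjusted p 0.0533), with 6 samples (0.397), with the replicate block (0.441) and without CtrlF2 replicate 3 (0.0516), at changes of -0.66 to -0.63 in the uncentred values, against -0.94 at the fixed settings. Dim reporters varied most between CtrlF2 arrays, and the part of this spread in their fewer calls was not tested.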

Other observations

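The dye term of the limma fit was called for 779 of 2207 reporters with the values as deposited and for 59 after centring, with a median size of 0.199 before centring. After centring, 112 reporters were called by the fit that the authors' deposited table did not call in either direction. The plate row of a clone went with smaller differences than its plate number: between 12.2% (row A) and 18.9% (row C) of reporters were higher in CtrlF1, and between 11.6% (row H) and 19.8% (row B) lower.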
